A study of Arabidopsis thaliana with 2 samples.

Results

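The serine carboxypeptidase-like genes of Arabidopsis thaliana were examined in dark-grown seedlings with and without 1 h of red light. A gene was taken as a member when the array annotation gave a probe set to it alone and its symbol was scpl or SCPL followed by a number. The rule found 29 genes, each with 1 probe set, among 13356 genes with a listed probe set of their own. It used no measured value. The TAIR10.1 gene table lists 51 genes of the family, of which 3 share probe sets with another gene and 19 have no listed probe set naming them. Those 22 genes are not among the members.

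Both groups were whole seedlings of the Landsberg erecta accession, 7 days old and grown in darkness at 23 °C. Their seeds had been stratified cold and dark for 2 days, after which 2 h of white light synchronised germination. The red light group then received 1 h of light through a filter that transmitted most at 630 nm, at about 10 µmol per square metre per second. The dark group stayed in darkness for that hour. Each group was 1 pool of 5 seedlings on 1 array, so every difference below is a difference between 2 arrays, with no error across samples and no test. Other differences between the pools, plates or arrays cannot be told apart from red light.

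Serine carboxypeptidases are hydrolases of the alpha/beta fold that use a serine, an aspartate and a histidine to remove residues from the carboxyl end of peptides, and plants carry many secreted or vacuolar copies. Some members of the plant family have become acyltransferases, which take an acyl group from a glucose ester. SNG1 makes sinapoylmalate, a leaf sunscreen, and SNG2 makes sinapoylcholine, a seed ester, and both belong to the branch that holds the genes numbered 1 to 19. BRS1, numbered 24, was found because its overexpression suppresses a weak allele of the brassinosteroid receptor gene BRI1. SNG1, SNG2 and BRS1 have no listed probe set naming them and are not analysed here. The comparison asks which members are transcribed in etiolated seedlings and whether their transcript signals differ after the first hour of red light.

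The deposited values are linear signals of probe sets. The median probe set had a signal of 191 in the dark and 203 after red light. The 27 probe sets for bacterial transcripts, used as background, reached at most 11.5 in the dark and 20.5 after red light. Of 13 marker genes of root, cotyledon, green tissue and seed, 9 had a listed probe set and 6 passed the signal filter described below. The root marker PYK10 had signals of 9764 in the dark and 7781 after red light, and the root markers EXPA7 and EXPA18, with 26.4 and 52.3 in the dark, were under background after red light. PORB, a chlorophyll synthesis gene expressed in dark-grown cotyledons though not only there, had 5188 and 2922. Of the antenna genes, LHCB4.2 was 2.62-fold higher after red light, and LHCB4.1 differed little, by -0.02 on the log2 scale. Of the seed and germination genes, ICL was 5.09-fold lower and M17 had a log2 ratio of 0.16, and PAP85, with 112 and 82.8, did not pass the filter. For actin the 3′ to 5′ signal ratio was 35.8 in the dark and 40.1 after red light with 1 pair of controls, and 8.44 and 6.55 with the other. For GAPDH the ratios were lower, 2.11 in the dark and 2.06 after red light with 1 pair, and 2.05 and 1.605 with the other. The part of seedling stage and RNA quality in the ratios of the family was not tested.

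A member counted as expressed in the dark when its signal on the dark array reached 97.1, the 40th percentile of the probe sets that are not controls. By that measure 14 of the 29 members, or 48.3%, were expressed, against 54.1% of all probe sets naming 1 gene. Another 3 members lay between the background and that threshold. The remaining 12, or 41.4%, did not exceed the highest background probe set, against 24.6% of all probe sets naming 1 gene. Probe sets differ in how brightly they respond, so signals of different genes are set against these limits and not against each other.

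**Figure D1:**
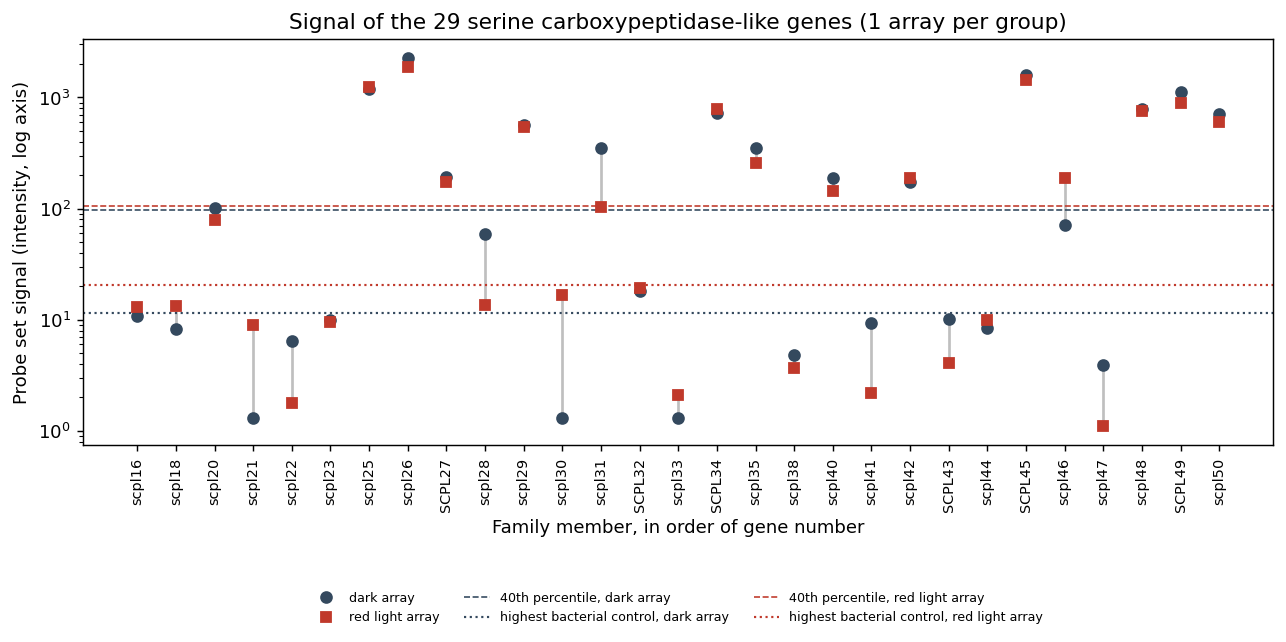
Signals of the 29 members (x axis, in order of gene number) on the dark array (circles) and the red light array (squares), on a log axis of intensity. Dashed lines mark the 40th percentile and dotted lines the highest bacterial control of each array. Of the 29 members, 14 reach the dashed line on the dark array, and 12 lie under the dotted lines on both arrays.

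Dark signals far above the threshold were measured for scpl26 (2275), SCPL45 (1576), scpl25 (1203) and SCPL49 (1114). The gene table lists carboxypeptidase Y as another name of SCPL49, after the vacuolar carboxypeptidase of yeast. The red light array gave 1886 for scpl26, 1446 for SCPL45, 1252 for scpl25 and 899 for SCPL49. All 4 were expressed on both arrays, and none differed 2-fold between them. The same held for scpl48, with 789 in the dark and 758 after red light, SCPL34 with 731 and 786, scpl50 with 716 and 604, and scpl29 with 566 and 540. These 8 members also passed a stricter filter, at the 60th percentile of mean signal. Closer to the threshold, in the dark and after red light, lay scpl35 with 352 and 256, SCPL27 with 192 and 174, scpl40 with 188 and 144, and scpl42 with 175 and 189. Of the 29 members, 12 were expressed on both arrays, which were these 12. The share of all probe sets expressed on both arrays is not given here, so this count has no baseline.

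Just inside the limit in the dark was scpl20, with a signal of 100.9, while its red light signal of 78.9 was under the limit of 105 on that array. Its mean over both arrays, 89.2, was below the filter used for ratios. The 3 members between background and threshold in the dark were scpl46 with 71.0, scpl28 with 58.7 and SCPL32 with 18.1. On the red light array scpl46 passed the threshold, while SCPL32, at 19.4, and scpl28, at 13.7, were under the highest background signal.

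Signals at background on both arrays were found for scpl16, scpl18, scpl21, scpl22, scpl23, scpl30, scpl33, scpl38, scpl41, SCPL43, scpl44 and scpl47. Their signals ran from 1.30 to 10.9 in the dark and from 1.10 to 16.7 after red light. The share of all probe sets at background is given above for the dark array alone. No ratio is given for these 12 genes, because both values lie within the range of probe sets that have no matching transcript in the plant. This includes scpl30, with 1.30 and 16.7, and scpl21, with 1.30 and 8.90, where a quotient would be large and would rest on background alone. Both members of the acyltransferase branch, scpl16 (10.9 in the dark and 12.9 after red light) and scpl18 (8.20 and 13.2), were in this group. A signal at background shows that the transcript was not detectable with that probe set, not that it was absent.

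Ratios were read for members whose mean log2 signal over both arrays reached the 40th percentile of all probe sets, a signal of 102. This left 14 members, called measured here, of 7282 measured genes. After red light 1 member, scpl46, was higher by 2-fold or more, and 1 member, scpl31, was lower by as much. For all measured genes those shares were 4.82% higher and 2.44% lower, so 1 of 14 in each direction is close to the background. In whole seedlings, fewer cells that hold a transcript and less of it per cell cannot be told apart.

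For scpl31 the signal was 353 in the dark and 103 after red light. It was therefore expressed in the dark and just short of the limit of 105 after red light, and the red light signal was 3.42-fold lower, a log2 ratio of -1.77. Over 6 settings, the main one and 5 other scalings or offsets, its log2 ratio ran from -1.87 to -1.47, past 2-fold in each. These settings rescale the same arrays, so such a range is not an error across samples. For scpl46 the order was the opposite, with a signal of 71.0 in the dark and 190 after red light. This was 2.68-fold higher, a log2 ratio of 1.42 that ran from 1.19 to 1.72 over the same 6 settings. It reached the limit for expression on the red light array alone and passed the filter only through that array, with a mean signal of 116. Split by mean signal into 5 equal bands, both genes were in the dimmest band of measured genes, with mean signals up to 207. In that band 7.55% of genes were higher and 3.57% lower by 2-fold or more, and the SD of log2 ratios was 0.70, against 0.45 in the brightest band. Neither gene passed the filter at the 60th percentile, a mean signal of 332.

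**Figure D2:**
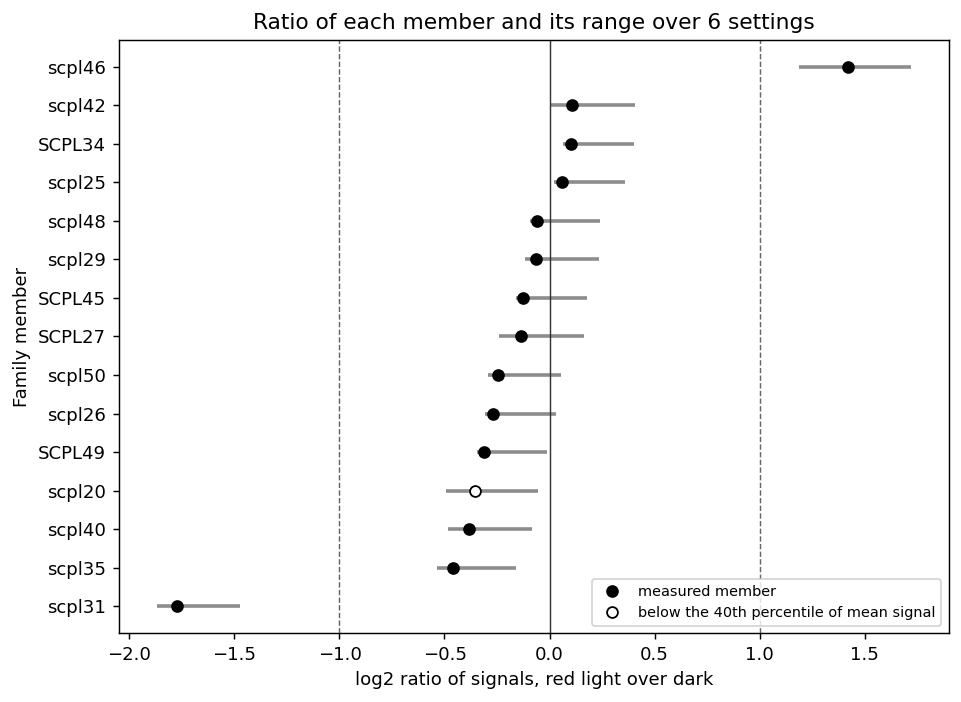
Log2 ratio of red light over dark (x axis) for the 15 members with a signal above background on both arrays. Filled points passed the signal filter and the open point did not, and dashed lines mark 2-fold. Grey bars span 6 settings of scaling and offset on the same arrays and show no error across samples. The bars of scpl31 and scpl46 lie wholly beyond 2-fold, while the other members stay within it.

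The other 12 measured members had log2 ratios between -0.46 and 0.11, that is from 1.37-fold lower to 1.08-fold higher. The lowest of them were scpl35 (-0.46), scpl40 (-0.38), SCPL49 (-0.31), scpl26 (-0.27) and scpl50 (-0.25). Smaller still were the ratios of SCPL27 (-0.13), SCPL45 (-0.12), scpl29 (-0.07) and scpl48 (-0.06). On the other side were scpl25 (0.06), SCPL34 (0.10) and scpl42 (0.11). Pairs of probe sets for the same gene, of which 37 were measured, differed by a median of 0.27 in log2 ratio. The interquartile range of all measured genes was -0.29 to 0.32, and 9 of the 14 members were inside it.

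Of the 14 measured members 10, or 71.4%, had a lower signal after red light, against 49.9% of all measured genes. Their median log2 ratio was -0.13, and that of all measured genes was 0.00. The signs of such small ratios depend on the scale of the arrays. For the 18 hybridization control probe sets the median log2 ratio was -0.30, and centring on them moved all measured genes to a median of 0.30. The members' median then turned to 0.17, with 4 of 14 below 0. Centring moves every ratio by the same amount, so the gap between members and all genes could not change. No set test was made, and the difference is a description of these 2 arrays.

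**Figure D3:**
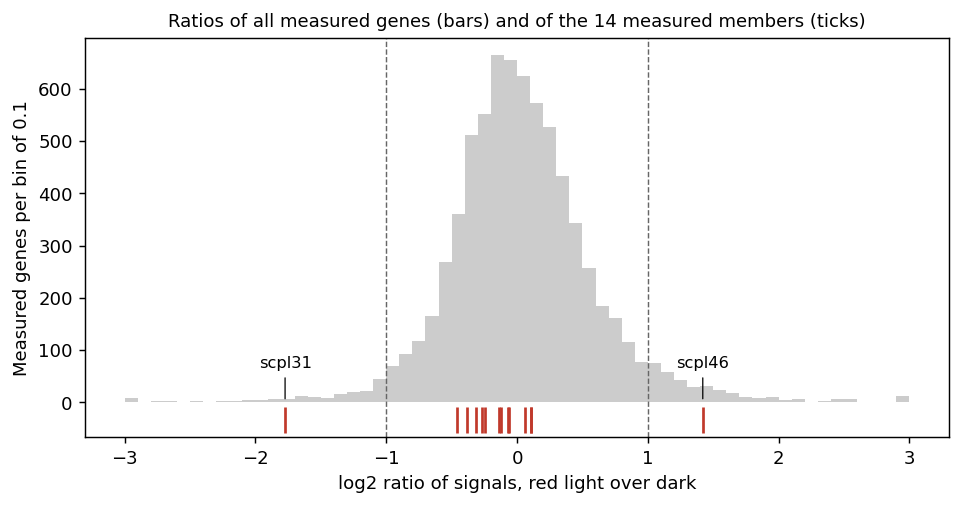
Distribution of log2 ratios, red light over dark, of the 7282 measured genes (grey bars, genes per bin of 0.1; ratios beyond 3 in either direction are drawn in the end bins), with the 14 measured members as red ticks. Dashed lines mark 2-fold. All members but scpl31 at -1.77 and scpl46 at 1.42 lie between -0.46 and 0.11.

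Much of the family stands in tandem, and neighbours were paired here by distance alone, with no measure of their likeness. With at most 10 other protein-coding genes allowed between neighbours, the 51 genes form 18 neighbouring pairs, among them the run of SNG1 and its relatives. For 3 of the pairs both copies are members: scpl22 with scpl23 (AT2G24000 and AT2G24010), scpl28 with scpl26 (AT2G35770 and AT2G35780) and scpl41 with scpl42 (AT5G42230 and AT5G42240). The copies of the pairs on chromosome 2 are direct neighbours, while scpl41 and scpl42 have 2 genes between them. In none of the 3 pairs were both copies measured, and in 2 pairs 1 copy was.

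Of scpl28 and scpl26, only scpl26 reached the threshold for expression, and for the ratio of scpl28 only a limit can be given. While scpl26 was expressed on both arrays and had a ratio of -0.27, scpl28 had signals of 58.7 in the dark and 13.7 after red light. The second value is under the highest background signal of 20.5, so scpl28 was at least 2.86-fold lower after red light when that signal is taken as its upper limit. With that limit the difference in log2 ratio between the copies (scpl28 minus scpl26), a measure chosen after seeing the data, was -1.25 or lower. An offset of 22.1, added to all signals before the logarithm, weakened the limits to 1.90-fold and -0.66. Among genes as dim as scpl28, between the 20th and 40th percentile of mean signal, 6.45% were lower and 12.7% higher by 2-fold or more.

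In the pair of scpl41 and scpl42, scpl42 was expressed on both arrays, with signals of 175 in the dark and 189 after red light and a log2 ratio of 0.11. Its neighbour scpl41, known in Arabidopsis for a role in membrane lipid metabolism, had signals of 9.30 and 2.20, under the background of both arrays. Neither scpl22, with 6.50 and 1.80, nor scpl23, with 9.90 and 9.50, exceeded the background. The probe sets of these 6 genes each name 1 gene, and cross-hybridization between copies was not tested.

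**Figure D4:**
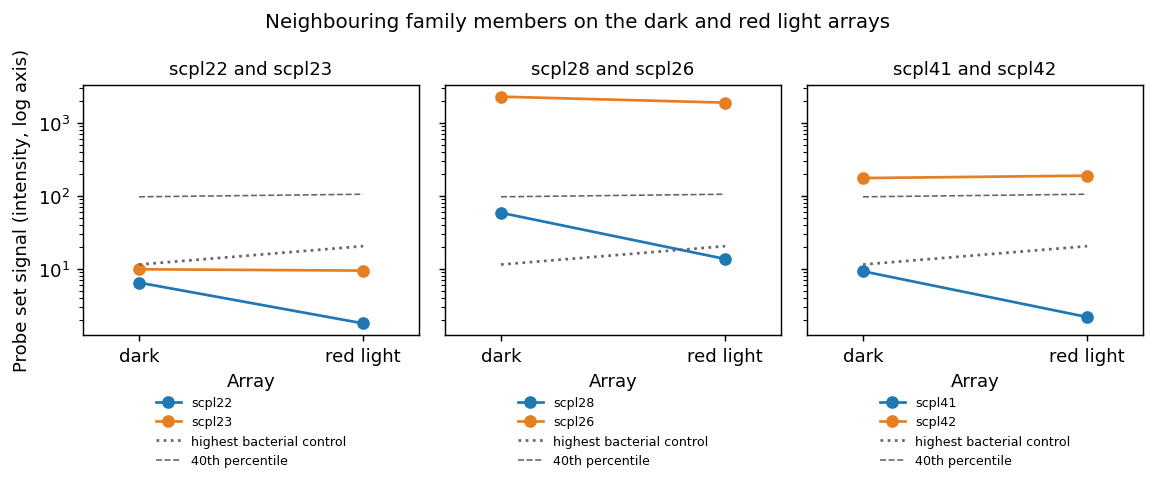
Signals of the 3 pairs of neighbouring members on the dark and red light arrays (log axis of intensity), 1 panel per pair and 1 coloured line per gene. Dotted lines join the highest bacterial controls and dashed lines the 40th percentiles of the 2 arrays. The lines of scpl26 and scpl42 lie above the dashed line on both arrays and those of scpl28 and scpl41 below it, while scpl22 and scpl23 both lie under the dotted line.

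Other members with a family gene nearby had no neighbour to compare. SCPL49 stands 4 genes from SCPL7, whose number places it in the acyltransferase branch, so they need not be copies of each other. The member scpl16 lies between scpl17 and scpl14. These neighbours have no listed probe set naming them. The 3 neighbours scpl36, scpl37 and scpl39 are read by 2 shared probe sets. The probe set shared by scpl36 and scpl37 had signals of 2.60 in the dark and 0.90 after red light. That shared by scpl39 and AT3G56540 had 3.70 and 5.40. Both were under the background of both arrays.

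The acyltransferases of the family depend on the phenylpropanoid pathway for sinapate and on glucosyltransferases for sinapoylglucose. Of 23 genes of this pathway on a list, 5 had a listed probe set of their own and 2 of these were measured. Neither was 2-fold apart. HCT, a hydroxycinnamoyltransferase that feeds the route to sinapate, had signals of 2311 in the dark and 2407 after red light. REF1, the aldehyde dehydrogenase that forms sinapate, had 2972 and 2742. The other 3 were the tandem glucosyltransferase genes UGT84A1, UGT84A3 and UGT84A4, whose enzymes make glucose esters of hydroxycinnamates. UGT84A1 had signals of 43.0 in the dark and 114 after red light, which is 2.65-fold higher, but its mean did not reach the filter. UGT84A3 had 39.5 and 72.7, and UGT84A4 had 33.5 and 48.2. All 3 were above the highest background signal on both arrays but below the filter, and UGT84A1 alone was past 2-fold. Among genes between the 20th and 40th percentile of mean signal, 12.7% were higher and 6.45% lower by 2-fold or more. Cross-hybridization between these copies was not tested.

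Of 11 brassinosteroid genes on a list, BRL1 alone had a listed probe set of its own. BRL1, a receptor kinase related to BRI1, had signals of 95.4 in the dark and 127 after red light, a log2 ratio of 0.41.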

How the data were processed

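Total RNA (20 ng per sample) was copied, amplified into DNA, fragmented, labelled with biotin and hybridized to an Affymetrix array, as the labels' protocols state. The authors deposited linear intensity values per probe set and, per the submitters' processing notes, computed them with MAS5, version 5. Its settings are not given in the sources used, and no detection calls were used. Both arrays had a mean of about 500 without the lowest and highest 2% (499.7 and 499.4), so no further scaling was applied.

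Of 22810 probe sets, 64 were controls, 13513 named 1 gene and 503 several, and 8730 were unlisted. All 29 members matched the TAIR10.1 gene table, which was used for names and neighbours. The values name no genome build, and neither coordinates nor sequences are shown. Signals of 0 were set to 0.1, ratios are log2 of red light over dark, and a gene with several probe sets got their mean. Every member is named, by rule. The alternatives were median centring, loess (span 0.3), quantile normalization, centring on hybridization controls, an offset of 22.1 (the 25th percentile), other filters and other fold thresholds. Members and lists were chosen with earlier results of these data known. The number of arrays limits the precision. The steps were tested on simulated data with planted changes and a noise level that was set and not estimated from these arrays. That checks the code and not the error of the ratios. Python 3.11.15, numpy 2.4.6, pandas 2.3.3 and statsmodels 0.14.6 were used.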

Additional observations from a re-analysis of the deposited data

How the results depend on the processing

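No paired analysis was possible because there was 1 sample per group. The counts of 1 member at least 2-fold higher and 1 lower were the same under all 5 scalings and offsets and at 1.5-fold. Removing cross-hybridizing probe sets and taking the brightest probe set could not change them, since each member has 1 plain probe set. With no filter on dim signals they were 3 higher and 6 lower, since members at background on 1 or both arrays then count. With the filter at the 60th percentile, which leaves 8 members, both were 0. At 3-fold 0 were higher and scpl31 alone was lower. For all 7282 measured genes the counts past 2-fold were 351 higher and 178 lower in the main setting. They were 705 and 91 with hybridization control centring, and 283 and 143 with the offset. Shares of all genes at the other filters and fold thresholds are not given here. The members' median ran from -0.17 to 0.17. The upper limit of the difference between scpl28 and scpl26, a measure chosen after seeing the data, went from -1.25 to -0.66 with the offset. Centring leaves such a difference as it is, and loess and quantile normalization were not run on a limit. The count of members expressed in the dark was 17 at the 20th percentile or above the highest bacterial control, and 10 at the 60th percentile. In the dark 41.4% of members did not exceed that control, against 24.6% of all probe sets naming 1 gene. Shares of all probe sets at the 20th and 60th percentiles are not given here.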
